A study of Mus musculus with 4 samples.

Results

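Oligodendrocyte precursor cells (OPC) of the mouse hippocampus are described here from single-nucleus RNA counts. A barcode was taken as an OPC nucleus where it held at least 1000 unique molecular identifiers (UMIs, each tagging 1 RNA molecule) and at least 1 UMI of Pdgfra. At least 3 of the 6 genes Pdgfra, Vcan, Lhfpl3, Cspg4, Emid1 and Sema3d had to have a UMI, Rbfox3 could have at most 1, and Slc17a7, Gad1 and Gad2 together at most 1. This rule found 929 nuclei among 43592 barcodes with at least 1000 UMIs. The control group, Control, was Kat6a-f/f, with loxP sites around Kat6a and no Cre. The other group, Kat6a-cKO, was Kat6a-f/f with NEX-cre, a Cre gene driven from the Neurod6 locus, which is active in excitatory neurons of the forebrain. All 4 libraries thus came from adult mice with the floxed Kat6a gene, 2 libraries per group, and OPC lie outside the lineage to which the Cre is directed. The labels do not say how many animals went into a library, so that p-values measure the spread between these libraries.

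OPC are proliferating glia spread through the grey and white matter of the adult brain. They depend on platelet-derived growth factor, whose receptor is the product of Pdgfra, carry chondroitin sulfate proteoglycans such as NG2 (Cspg4) on their surface, receive synapses from neurons and can mature into myelinating oligodendrocytes. Maturation passes through a committed stage marked by Gpr17, Enpp6 and Bmp4, after which the genes of the myelin sheath are turned on. KAT6A is a histone acetyltransferase, and the series title places its question in RSPO2 and Wnt signalling of CA3 neurons. The comparison of genotypes within OPC asks whether RNA levels differ in a cell type outside the Cre lineage.

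The rule found 229 and 181 OPC nuclei in the Control libraries and 314 and 205 in Kat6a-cKO, with summed counts of 1345548, 1015561, 1635371 and 1035739 in that order. The median depth of an OPC nucleus was 5741 and 5254 UMIs for Control against 4744 and 4740 UMIs for Kat6a-cKO, so both Kat6a-cKO libraries were shallower (exact permutation test, two-sided, p = 0.333, the smallest p that 2 against 2 can give). The droplets without a nucleus, taken as barcodes with 100 to 900 UMIs, moved the same way, with medians of 512 and 547 UMIs against 411 and 385 UMIs. When each OPC nucleus was thinned to 1000 UMIs, the median number of genes was 707 and 711 against 700 and 706. No OPC barcode was shared between libraries, although 27 to 35 barcodes with at least 1000 UMIs were shared by each pair of libraries. Scrublet called 3, 2, 8 and 6 OPC nuclei doublets (in the order Control 1, Control 2, Kat6a-cKO 1, Kat6a-cKO 2, used for every set of 4 values below), and they were kept.

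The nuclei lay well inside the rule. All 6 markers had a UMI in 133, 83, 139 and 100 nuclei, and exactly 3 had one in 2, 5, 8 and 5. Just outside the rule, 6, 8, 10 and 1 barcodes had exactly 2 markers. No OPC nucleus held under 1100 UMIs. The limit on neuronal UMIs was met closely by more nuclei: 85, 66, 87 and 62 held exactly 1 UMI of Slc17a7, Gad1 and Gad2, and 17, 27, 28 and 11 otherwise matching barcodes held 2 and were left out.

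The markers that chose the nuclei are given as a description, in CPM (the count of a gene scaled by the total of the OPC sum of that library). Pdgfra (GRCm38 chromosome 5, 75152292 to 75198215, plus strand, a protein-coding gene that 3 other annotated genes overlap) was at 818, 748, 766 and 793 CPM. It was at 0 in the oligodendrocytes, astrocytes and excitatory neurons, because those comparison classes were required to lack it. Vcan, which encodes the matrix proteoglycan versican, was at 1681, 1540, 1652 and 1616 CPM, and Cspg4, which encodes NG2, at 220, 197, 175 and 220 CPM. Each marker was at a like level in all 4 libraries, and Control and Kat6a-cKO overlapped for all 6. The neuronal genes of the rule stayed low, with Slc17a7, the vesicular glutamate transporter, at 24.5, 32.5, 35.5 and 22.2 CPM against 212 to 246 CPM in excitatory neurons and 464 to 522 CPM in the droplets without a nucleus.

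Genes of OPC identity that the rule did not use were also high in these nuclei. Sox10, a transcription factor of the whole oligodendrocyte lineage, was at 139, 136, 118 and 118 CPM in OPC, 62.1 to 93.2 CPM in oligodendrocytes and 1.26 to 5.01 CPM in astrocytes. Olig2, the other lineage factor, was at 58.0, 51.2, 57.5 and 39.6 CPM in OPC and 2.86 to 13.4 CPM in astrocytes. Sox6, a factor that holds precursors in the immature state, was at 1708, 1629, 1727 and 1593 CPM in OPC. Oligodendrocytes had only 28.9 to 50.6 CPM of Sox6, whereas astrocytes had 967 to 1090 CPM. The pattern of Ptprz1, a receptor phosphatase that carries chondroitin sulfate, was alike, with 2406, 2304, 2341 and 2337 CPM in OPC, 16.2 to 29.9 CPM in oligodendrocytes and 1550 to 1789 CPM in astrocytes. Pcdh15, a protocadherin, was instead low in astrocytes (21.4 to 56.8 CPM) and at 3984, 4069, 4044 and 4204 CPM in OPC. These levels match the label of the nuclei, and the differences between classes are described without a test because the classes were chosen by expression.

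**Figure D1:**
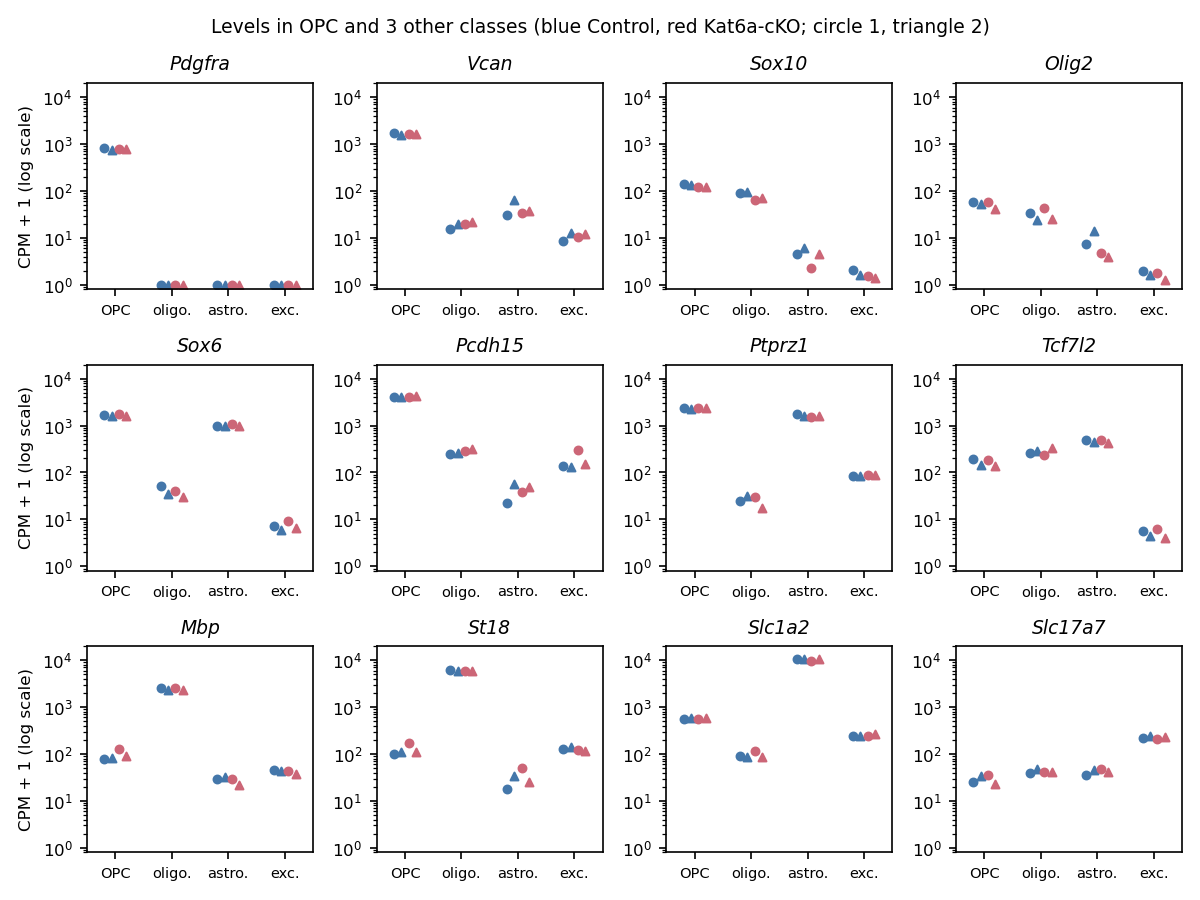
Levels of 12 genes (CPM plus 1, log scale) in OPC, oligodendrocytes, astrocytes and excitatory neurons, 1 point per library. Sox10 and Olig2 were high in OPC and oligodendrocytes, Sox6 and Ptprz1 in OPC and astrocytes, and Mbp and St18 in oligodendrocytes; Pdgfra and Vcan were used by the rule.

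The 20 genes with the highest fold of OPC over all other barcodes in every library included the 6 rule markers and 14 others, of which the following were read as a description. Gm4876, Abtb2, Cacng4, Shc4 and Arhgap31 led those outside the rule. Gm4876, a gene known only by its number, was at 903, 854, 856 and 865 CPM in OPC against 8.52 to 15.1 CPM in the other barcodes, and at 196 to 247 CPM in astrocytes. Cacng4, an auxiliary subunit of AMPA-type glutamate receptors, was at 367, 323, 334 and 402 CPM in OPC and at most 1.89 CPM in oligodendrocytes. Shc4, an adaptor of receptor tyrosine kinases, was at 319, 288, 276 and 263 CPM. Neu4, a sialidase, was at 150, 130, 135 and 134 CPM in OPC and at 2.32 to 4.25 CPM in oligodendrocytes. Ntn1, the secreted guidance cue netrin, was at 232, 225, 209 and 227 CPM in OPC and at 0 to 1.70 CPM in oligodendrocytes. Kcnh8, a voltage-gated potassium channel, was at 509, 445, 412 and 413 CPM, and its 2 Control values lay above its 2 Kat6a-cKO values. For these 14 genes the edgeR adjusted p of the genotype comparison within OPC was 0.755 (Kcnh8) or higher.

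Of the receptors and channels through which OPC sense neurons, several were high in every library. Others of the same lists were low, among them Grin1 and Grm3, whose levels are given below. Among growth factor genes, Erbb4, a neuregulin receptor, was at 3098, 3212, 3208 and 3500 CPM in OPC, close to the 2984 to 3176 CPM of oligodendrocytes and far from the 127 to 263 CPM of astrocytes. Among glutamate receptors, Grm5, a metabotropic receptor, was at 1472, 1268, 1345 and 1332 CPM in OPC and 109 to 159 CPM in oligodendrocytes. Gria4, an AMPA receptor subunit, was at 810, 876, 883 and 871 CPM in OPC and 14.5 to 35.9 CPM in astrocytes. Kcnd2, which encodes an A-type potassium channel, was at 3924, 4377, 4308 and 4267 CPM, against 129 to 202 CPM in oligodendrocytes. In the matrix and adhesion list, Tnr, the matrix protein tenascin-R, was at 4001, 3698, 3855 and 4192 CPM in OPC and 164 to 280 CPM in oligodendrocytes. For Erbb4, Grm5, Gria4, Kcnd2 and Tnr the CPM values of the genotypes overlapped.

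Of the genes of the committed stage, Enpp6 was low, Gpr17 could not be read, and others were well above the droplets without a nucleus. The 14 genes of this list summed to 2474, 2031, 2216 and 2092 CPM in OPC and to 366 to 465 CPM in those droplets. Gpr17, the defining gene of committed precursors, had 0, 1, 1 and 1 counts in OPC and 0 in oligodendrocytes, and Enpp6 was at 6.69, 0, 1.22 and 0.966 CPM in OPC against 43.1 to 64.0 CPM in oligodendrocytes. The planned share of OPC nuclei with Gpr17 together with Bmp4 or Enpp6 was 0% in each library and says nothing, because Gpr17 was hardly counted in any class. Another annotated gene overlaps Gpr17, and whether reads of Gpr17 were lost in the counting was not tested, so that its counts are not read as its level. Other genes of that stage were measured: Bcas1 was at 256, 211, 234 and 203 CPM in OPC, against 340 to 403 CPM in oligodendrocytes, and Tcf7l2, a Wnt-pathway transcription factor, was at 193, 145, 184 and 138 CPM. Tmem163, a zinc-binding membrane protein, was at 371, 195, 203 and 190 CPM. Its high value was that of 1 library, Control 1, and its edgeR log2 fold change of -0.52 became 0.061 without that library. Without Control 2 it was -0.90 and passed the adjusted threshold. Of the 14 genes of this list 11 were tested, 5 had a positive and 6 a negative log2 fold change, and 0 passed an adjusted p of 0.05.

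The share of OPC among barcodes with at least 1000 UMIs was 2.08%, 1.67%, 2.73% and 2.01%. The means were 1.87% ± 0.292 (SD, n = 2) and 2.37% ± 0.505 (SD, n = 2), and the ranges overlapped (exact permutation test, two-sided, p = 0.667). In 2 other settings they did not: with OPC nuclei free of neuronal UMIs the shares were 1.10%, 0.884%, 1.82% and 1.29%, and with a minimum of 500 UMIs they were 0.443%, 0.282%, 1.65% and 1.44% (exact permutation test, p = 0.333 for each, the smallest possible). The first setting kept 121 of 229, 96 of 181, 210 of 314 and 132 of 205 OPC nuclei, a larger part in both Kat6a-cKO libraries. At 500 UMIs the denominators were 51879, 64915, 19142 and 14328 barcodes, whereas the OPC numbered 230, 183, 315 and 206. Among the 3 glial classes, OPC were 15.3%, 15.2%, 18.03% and 16.9%, where the Kat6a-cKO libraries lay above the Control libraries (exact permutation test, p = 0.333, the smallest possible). The exact 95% binomial intervals, which cover counting error only, ran from 13.5% to 17.3% for Control 1, 13.2% to 17.3% for Control 2, 16.2% to 19.9% for Kat6a-cKO 1 and 14.8% to 19.1% for Kat6a-cKO 2. A difference in the share of OPC was not detectable with 2 libraries per group.

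A small part of the OPC expressed genes of the cell cycle. At least 3 of 10 mitotic genes (such as Top2a, a topoisomerase, and Mki67, the Ki-67 antigen) had a UMI in 10 of 229, 5 of 181, 18 of 314 and 7 of 205 nuclei, which is 4.37%, 2.76%, 5.73% and 3.41%. The genotypes overlapped (exact permutation test, two-sided, p = 0.667), and without Kat6a-cKO 1 the difference of the means changed sign, from 1.01 to -0.15 percentage points. The same score marked 0 oligodendrocytes and 0% to 1.11% of astrocytes, and 0.725% to 0.97% of the far deeper excitatory neurons. After thinning to 1000 UMIs the OPC shares were 1.75%, 2.21%, 2.87% and 1.95%. The cycle genes that did not take part in the score summed to 1506, 1972, 1397 and 1299 CPM in the marked nuclei and to 159, 171, 170 and 194 CPM in the other OPC nuclei. Pdgfra, of which the rule required a UMI in every nucleus, was at 916, 756, 799 and 1186 CPM in the marked nuclei. Of the 30 cell cycle genes 19 were tested between genotypes, 11 had a positive and 8 a negative log2 fold change, and 0 passed. Hells, a chromatin remodeller of replicating cells, had a log2 fold change of 0.52 (edgeR adjusted p = 0.711), and Diaph3, a formin, of 0.28 (adjusted p = 0.711).

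**Figure D2:**
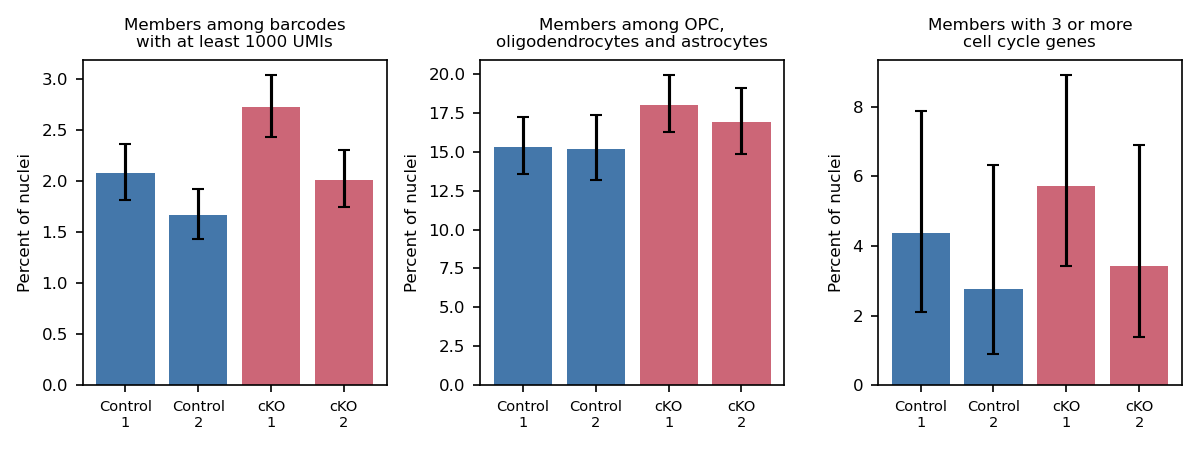
Percent of OPC among barcodes with at least 1000 UMIs, among the 3 glial classes, and of OPC nuclei with at least 3 cell cycle genes, 1 bar per library with its exact 95% binomial interval. The Control and Kat6a-cKO bars overlap in the left and right panels and lie at 15.2% to 15.3% against 16.9% to 18.03% in the middle one.

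The genes that varied most among OPC nuclei were partly the same in all 4 libraries. Ranked by variance beyond Poisson noise, 8 genes were among the leading 30 in all 4 libraries: St18, Mbp, Nkain2, Slc24a2, Kcnip4, Lingo2, Rad51b and B230303A05Rik. St18, a transcription factor high in oligodendrocytes (5741 to 6019 CPM), was at 100, 107, 171 and 108 CPM in OPC. It had a UMI in only 7.42%, 6.08%, 8.92% and 10.2% of OPC nuclei. The 5% of OPC nuclei with the most St18 held 96.3%, 99.1%, 95.7% and 91.1% of its counts, shares that this alone makes high. For Nkain2, a partner of the sodium pump, that 5% held 79.3%, 83.9%, 81.3% and 84.0%, and for Kcnip4, a potassium channel interacting protein of neurons, 47.0%, 50.5%, 52.0% and 52.6%.

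These nuclei carried several myelin genes at once. At least 20 UMIs of the 18 myelin genes were found in 4, 4, 6 and 6 OPC nuclei, which is 1.75%, 2.21%, 1.91% and 2.93%. They held 76.5%, 75.4%, 93.8% and 87.5% of the counts of Mobp, a myelin-associated basic protein gene, and 87.4%, 84.4%, 88.9% and 80.4% of those of St18. Their median depth of 9398, 7724.5, 11926 and 8301 UMIs was above that of OPC as a whole, and Scrublet called 1, 0, 3 and 4 of them doublets. Whether the myelin RNA belonged to the same nucleus as the Pdgfra RNA was not tested.

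Markers of cell types outside the oligodendrocyte lineage also met in single OPC nuclei. At least 7 of 12 astrocyte markers had a UMI in 2, 3, 6 and 3 nuclei, and at least 4 of 10 microglia markers in 1, 3, 2 and 0. At least 3 of 8 fibroblast markers were found in 2 nuclei, both in Kat6a-cKO 1. One of these held 341 of the 420 counts of Ptgds (prostaglandin D synthase) in that library's OPC and 54 of the 55 counts of Slc6a20a, a proline transporter, and the pair together held 1 count of Lhfpl3 and 0 of Mobp. That nucleus is also among the 6 with at least 20 myelin UMIs in Kat6a-cKO 1. In all, 7, 9, 15 and 9 nuclei, or 3.06%, 4.97%, 4.78% and 4.39% of OPC, met at least 1 of these criteria or the myelin criterion, all chosen after seeing the data, and are called marker-mixed nuclei below.

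**Figure D3:**
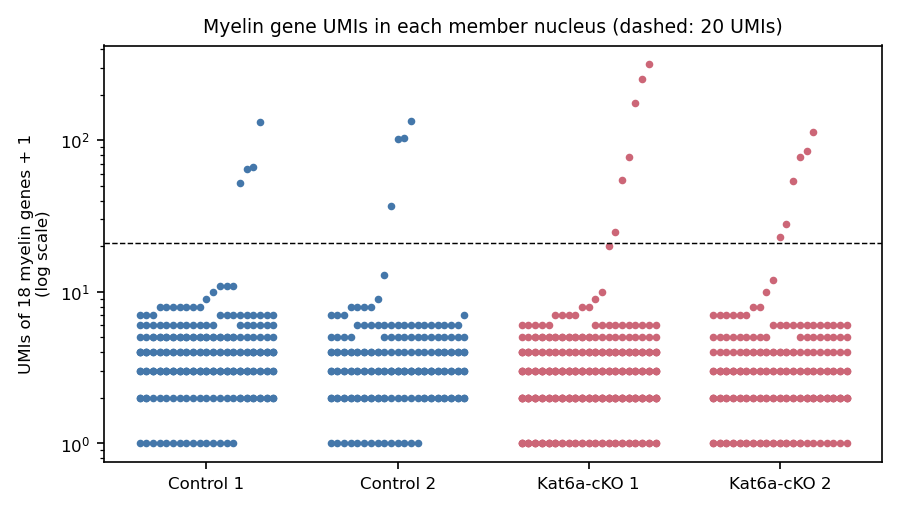
UMIs of the 18 myelin genes plus 1 (log scale) in each OPC nucleus, 1 point per nucleus, by library. Most nuclei hold few such UMIs, and 4, 4, 6 and 6 nuclei reach the dashed line at 20 UMIs.

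The targeted gene was read first in the comparison of genotypes. Kat6a had 166, 116, 188 and 115 counts in OPC, or 123, 114, 115 and 111 CPM, with a log2 fold change (Kat6a-cKO over Control) of -0.05 and an edgeR adjusted p of 0.981. Excitatory neurons had 73.6, 74.6, 66.8 and 68.8 CPM of Kat6a. Counts per gene do not show whether the deleted exons are present, so that Kat6a checks the labels only weakly. The Cre transcript had 0 counts in the OPC of every library. In excitatory neurons it was at 0, 0, 1.92 and 1.70 CPM, which matches the labels. The paralog Kat6b was at 231, 248, 257 and 248 CPM in OPC. Of the 8 genes of the KAT6A complex list 6 were tested, 3 in each direction, and Brd1, a scaffold subunit, had a log2 fold change of -0.46 (edgeR adjusted p = 0.684).

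In OPC, 0 of 9558 genes (0%) passed an adjusted p of 0.05 in edgeR's quasi-likelihood test between Kat6a-cKO and Control. DESeq2 called 1 gene. At an unadjusted p under 0.05 there were 660 genes (6.91%), of which 273 were higher (2.86%) and 387 lower (4.05%) in Kat6a-cKO. Both Control libraries lay on 1 side of both Kat6a-cKO libraries for 36.9% of genes, 18.7% higher and 18.2% lower. The count of calls depended on single libraries: 39 genes passed without Control 1, 35 without Control 2, 5 without Kat6a-cKO 1 and 28 without Kat6a-cKO 2. In simulated OPC counts of this depth, the test called 122 of 196 genes given a log2 fold change of 1 and 178 of 188 given one of 2. The simulation gave genes of like level the same spread and held no free RNA difference and no marker-mixed nuclei. These rates therefore need not hold for the real libraries.

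For genes of OPC identity outside the rule the log2 fold changes were balanced between the directions. Of 25 genes 23 were tested, 12 had a positive and 11 a negative log2 fold change, 0 passed, and the median was 0.02 against 0.002 over all 9558 genes. The one with an unadjusted p under 0.05 was Ntng1, a netrin-family adhesion gene, at 36.4, 26.6, 67.9 and 45.4 CPM. Both Kat6a-cKO libraries were above both Control libraries for Ntng1, with a log2 fold change of 0.89 (edgeR adjusted p = 0.438). Ntng1 passed without Control 1 (1.17, adjusted p = 0.0439) and without Kat6a-cKO 2 (1.12, adjusted p = 0.0201), and had 0.52 without Kat6a-cKO 1.

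In the Wnt pathway, 29 of 57 genes were tested, 18 had a positive and 11 a negative log2 fold change, the median was 0.04, and 0 passed. At an unadjusted p under 0.05, 2 were higher and 1 lower, 3 of 29 where 6.91% of all genes had such a p. Rnf43, a ubiquitin ligase that removes Wnt receptors, was at 100, 82.7, 124 and 110 CPM in OPC and at 2.21 to 2.63 CPM in excitatory neurons, with a log2 fold change of 0.38 (edgeR adjusted p = 0.678). Both Kat6a-cKO libraries lay above both Control libraries. Daam1, an actin regulator downstream of Wnt, was at 161, 167, 194 and 203 CPM, with a log2 fold change of 0.30 (adjusted p = 0.661), and the receptor Fzd3 at 89.9, 102, 70.3 and 74.3 CPM, with one of -0.38 (adjusted p = 0.695). Axin2, a feedback target of the pathway, was at 26.8, 25.6, 21.4 and 23.2 CPM. Rspo2, the ligand named in the series title, was too low in OPC to be tested, at 5.20, 1.97, 4.89 and 1.93 CPM, and excitatory neurons had 50.7 to 82.1 CPM.

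The other signalling lists gave 0 calls as well. For growth factors, 26 of 30 genes were tested with a median log2 fold change of -0.01. Erbb3, a neuregulin receptor, had a log2 fold change of -0.58 (edgeR adjusted p = 0.711). In the Notch list, 14 of 22 were tested with a median of 0.01, and Dner, a Notch ligand, had 0.26 (adjusted p = 0.62). In the BMP list, 14 of 23 were tested with a median of -0.03, and Smad1, a signal transducer of BMP receptors, had 0.49 (adjusted p = 0.696). Bmp6, a ligand, had 0, 11, 42 and 0 counts, with a log2 fold change of 1.67 (adjusted p = 0.755). It passed without Control 2 (7.33) and without Kat6a-cKO 2 (2.46), and its counts came from 1 library of each group. Among 36 tested transmitter receptors the median was 0.01. The metabotropic receptor Grm3 was at 42.4, 44.3, 55.0 and 75.3 CPM, with a log2 fold change of 0.59 (adjusted p = 0.595), and the NMDA receptor subunit Grin1 at 24.5, 26.6, 11.6 and 20.3 CPM, with one of -0.71 (adjusted p = 0.711). For 31 ion channel genes the median was 0.05, and for 54 genes of matrix, adhesion and guidance it was 0.06, with 33 positive and 21 negative values.

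**Figure D4:**
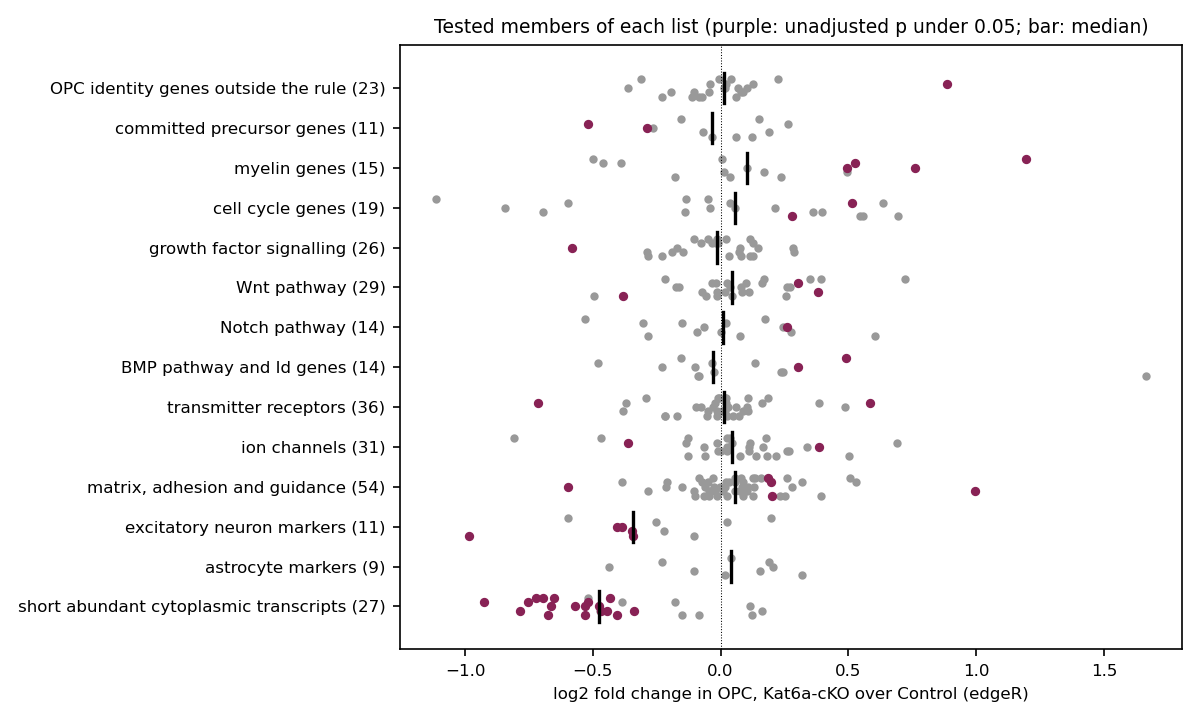
Log2 fold changes (Kat6a-cKO over Control, edgeR) of the tested genes of 14 lists in OPC, 1 point per gene, purple at an unadjusted p under 0.05, with the median as a bar and the number tested in parentheses. The medians of the identity and signalling lists lie between -0.03 and 0.06, that of short abundant cytoplasmic transcripts at -0.48.

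Short abundant cytoplasmic transcripts were mostly on the negative side. Of 27 tested genes 24 had a negative log2 fold change, 18 of them at an unadjusted p under 0.05, and 22 were lower in both Kat6a-cKO libraries than in both Control libraries (18.2% over all genes). The median was -0.48, and 0 passed the adjusted threshold. Fth1, the ferritin heavy chain, was at 352, 434, 261 and 276 CPM, with a log2 fold change of -0.52 (edgeR adjusted p = 0.152). Ribosomal protein genes, taken by symbol, had a negative log2 fold change in 65 of 66 tested genes, 30 of them at an unadjusted p under 0.05 (4.05% of all genes were lower at such a p), with a median of -0.49. Rpl37 was at 75.1, 98.5, 47.7 and 39.6 CPM, with a log2 fold change of -0.92 (adjusted p = 0.147). Without Control 1, Fth1 (-0.65) and Rpl37 (-1.11) passed.

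The same genes were rich in droplets without a nucleus. The short cytoplasmic transcripts summed to 4259, 5141, 3291 and 3352 CPM in OPC and to 41046, 45070, 32660 and 36382 CPM in those droplets, where they also were lower in both Kat6a-cKO libraries. Genes listed as markers of excitatory neurons had a median log2 fold change of -0.34 in OPC. Of 11 tested genes 9 were negative, 5 of them at an unadjusted p under 0.05. Whether OPC express some of these genes themselves was not tested. Neurod6, the locus that carries the Cre, was at 26.8, 30.5, 17.1 and 9.65 CPM in OPC, 28.5 to 44.4 CPM in excitatory neurons and 152 to 338 CPM in the droplets, with a log2 fold change of -0.98 in OPC (edgeR adjusted p = 0.553). Snap25, a synaptic fusion protein, had -0.35 (adjusted p = 0.553) and passed without Control 1 (-0.48). When all genes were ordered by their level in the droplets over that in the other nuclei, the median log2 fold change in OPC went from 0.08 for 1910 genes with a ratio under 0.5 to -0.32 for 1040 genes with a ratio over 4. Of those 1040 genes, 219 were lower and 6 higher at an unadjusted p under 0.05. The free RNA share was estimated from Nrgn, Hpca, Camk2a, Neurod2 and Olfm1, all in the list of excitatory neuron markers. Their counts in OPC were taken to be free RNA only, which was not tested. With the profile of these droplets the share was 9.28%, 10.4%, 9.29% and 9.002% of OPC counts. With that free RNA subtracted, 377 of 8575 genes had an unadjusted p under 0.05 and 0 passed in edgeR. That profile was chosen after seeing the data. Without subtraction, 660 of 9558 genes had such a p and 0 passed as well. The subtraction cut counts below the free RNA estimate to none and took genes out of the test. The lower number is thus partly built in, and its cause was not tested. The planned profile, from barcodes with 10 to 100 UMIs, put free RNA at 42.4%, 60.6%, 48.4% and 38.2% of OPC counts, and left 161 of 6439 genes with an unadjusted p under 0.05 and 0 that passed. The size of the free RNA share is thus not settled by these data.

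**Figure D5:**
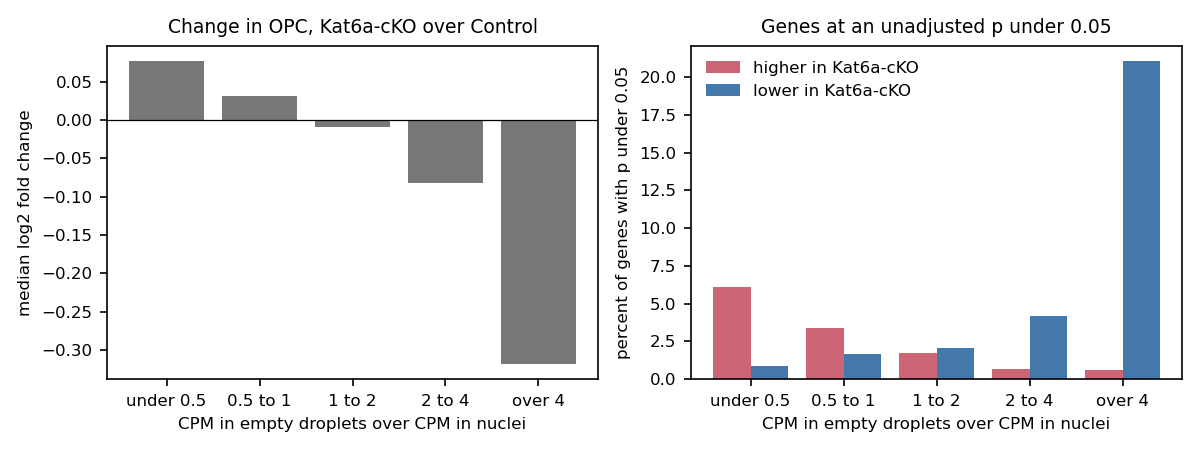
Genes tested in OPC grouped by their CPM in droplets without a nucleus over that in other nuclei of the Control libraries (5 CPM added to each); left, the median log2 fold change, right, the percent at an unadjusted p under 0.05 in each direction. The median falls from 0.08 to -0.32 across the groups, and lower genes gather in the group with a ratio over 4.

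The 9 genes nearest to the threshold, picked after their values were seen, had edgeR adjusted p-values of 0.0699 to 0.0734, and 7 of them had negative log2 fold changes. Fits with a library left out use the same libraries that picked these genes and leave 1 library in a group. They are therefore no independent test of the 9 genes. CT010467.1 (chromosome 17, 39846353 to 39848827, minus strand, annotated as ribosomal RNA) was at 6056, 5972, 4800 and 4237 CPM in OPC and at 46533 to 62008 CPM in the droplets. Its log2 fold change was -0.38 ± 0.07 (SE). Tmsb4x, which encodes the actin-binding thymosin beta-4, was at 768, 966, 585 and 587 CPM, with -0.53 ± 0.10 (SE), and Actb, beta-actin, at 387, 411, 246 and 284 CPM, with -0.57 ± 0.11 (SE). Usmg5, a subunit gene of the mitochondrial ATP synthase, had -1.08, Rps21 -0.83 and Cox6c, of the respiratory chain, -0.70. In the droplets, Tmsb4x was at 6890 to 9393 CPM, Actb at 2125 to 3534 CPM and Rps21 at 704 to 1096 CPM, each above its level in OPC.

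Zbtb18 (chromosome 1, 177442351 to 177450764, plus strand), a transcriptional repressor of neurons, was at 92.2, 78.8, 34.2 and 47.3 CPM in OPC, with a log2 fold change of -1.09 ± 0.20 (SE). Both Kat6a-cKO libraries were below both Control libraries. In the droplets Zbtb18 was at 479 to 760 CPM, and in excitatory neurons its log2 fold change was -0.65 (edgeR adjusted p = 0.0384), in a class where 12 of 19323 genes (0.0621%) passed. Its log2 fold change was -0.60 in oligodendrocytes and -0.73 in astrocytes (adjusted p = 0.176 and 0.11), and the droplets held 710 and 760 CPM in the Control libraries against 479 and 598 CPM. CT010467.1, Usmg5 and Rps21 were also among those 12, with log2 fold changes of -0.67, -0.77 and -0.85, and Rps21 also passed in astrocytes (-0.77, adjusted p = 0.046). With free RNA subtracted by the profile of these droplets, Tmsb4x, Zbtb18 and Usmg5 did not pass the filter on low counts. The same subtraction gave CT010467.1 a log2 fold change of -3.03, Rps21 -5.16, Cox6c -3.14 and Actb -0.62. Mobp was at 1.40 and Nkain2 at 0.46, and none of these 6 genes passed (edgeR adjusted p of 0.388 to 0.995). Little of CT010467.1, Rps21 and Cox6c was left, since a count below the free RNA estimate was cut to none. The sizes of their values are therefore not read. With the planned profile, only Mobp (8.47) and Zbtb18 (-2.97) of the 9 genes could be tested, and neither passed (adjusted p = 0.999). St18 had 2.42 there. Counts below the free RNA estimate were cut to none with that profile too, so that the sizes of its values are not read either.

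Mobp (chromosome 9, 120149707 to 120181484, plus strand) and Nkain2 were the 2 with a positive log2 fold change. Mobp was at 37.9, 56.1, 118 and 85.0 CPM, with a log2 fold change of 1.19 ± 0.21 (SE), and Nkain2 at 366, 404, 532 and 536 CPM, with 0.50 ± 0.10 (SE). Both genes were higher in each Kat6a-cKO library than in each Control library. Mobp passed the adjusted threshold without Control 1 (0.93), without Control 2 (1.46) and without Kat6a-cKO 2 (1.40), and Nkain2 without Control 2 (0.56). Without the marker-mixed nuclei, the value of Nkain2 was 0.51 (adjusted p = 0.149) and that of Mobp -0.30 (adjusted p = 0.958). For Mobp this is no independent test, because its own UMIs helped to choose the nuclei left out, which held most of its counts. Without the Scrublet doublets, Mobp had 0.32 and Nkain2 -0.29. Of the 15 tested myelin genes 11 had a positive log2 fold change and 4 were higher at an unadjusted p under 0.05 (2.86% of all genes), among them Mbp, the myelin basic protein gene, with 0.52 and St18 with 0.50. Without the marker-mixed nuclei, chosen with these genes too, Mbp had 0.05 and St18 0.54, and without the doublets 0.17 and -0.43. St18 passed without Kat6a-cKO 2 (0.77).

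With the marker-mixed nuclei left out, 17 genes passed the adjusted threshold in edgeR, 15 lower and 2 higher in Kat6a-cKO. The lower genes included the ribosomal protein genes Rpl37, Rpl37a, Rps21 and Rps3a1, and 7 of the 9 genes above were among the 17. The 2 higher genes were Tenm2, a teneurin adhesion receptor (chromosome 11, 36006656 to 37235964, minus strand), and Pola1, a DNA polymerase subunit. Tenm2 had 428, 315, 863 and 411 counts over all OPC and a log2 fold change of 0.60 ± 0.12 (SE), with an adjusted p of 0.105. Tenm2 passed without Control 1 (0.63), Control 2 (0.56) or Kat6a-cKO 2 (0.79), and had 0.35 without Kat6a-cKO 1. It was 0.66 (adjusted p = 0.0127) without the marker-mixed nuclei and 0.45 (adjusted p = 0.163) without the doublets. Gm47283, a gene with no matching version in the annotation, was among the lower ones, with -0.94 over all OPC (adjusted p = 0.221). It had 751, 279, 424 and 170 counts, its value was -0.30 without Control 1, and it passed without Control 2 (-1.35) and without Kat6a-cKO 1 (-1.35).

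A class by genotype interaction term, with the library as a block, was used to ask whether the genotype change of OPC differed from that of another class. Against oligodendrocytes, 0 of 11708 genes (0%) passed in edgeR, and 482 had an unadjusted p under 0.05. In oligodendrocytes themselves 1 of 11502 genes (0.00869%) passed. With a library left out, 6 genes passed in the interaction without Control 1, 12 without Control 2, 4 without Kat6a-cKO 1 and 8 without Kat6a-cKO 2. Log2 fold changes in oligodendrocytes were -0.69 for Actb, -0.42 for Tmsb4x and 0.13 for Mobp.

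Against astrocytes, 4 of 11174 genes (0.0358%) passed: Ankfn1, Ptgds, Cntnap5c and Dpp10. Dpp10, an auxiliary subunit of A-type potassium channels, was steady in OPC at 944, 922, 1031 and 965 CPM. In astrocytes Dpp10 was at 39.4, 39.2, 104 and 89.4 CPM, with a log2 fold change of 1.34 (adjusted p = 0.00202). OPC minus astrocytes was -1.24 ± 0.20 (SE, adjusted p = 0.0013). Ankfn1, which encodes a protein with ankyrin repeats, was at 66.1, 106, 88.7 and 83.0 CPM in OPC and at 4.06, 35.1, 0.419 and 0 CPM in astrocytes. Cntnap5c, a contactin-associated protein gene, was at 9.66, 10.8, 25.7 and 29.9 CPM in OPC and 26.1, 38.4, 21.8 and 15.0 CPM in astrocytes. Ankfn1 did not pass without Control 2 (3.98, adjusted p = 0.13), the library with its highest astrocyte level, and Cntnap5c did not pass without Control 2 (1.95) or Kat6a-cKO 2 (1.79) or with sums thinned to the smallest total (2.11). None of the 4 passed without the library block or without Kat6a-cKO 1, where 0 genes passed in edgeR and 402 and 449 had an unadjusted p under 0.05. Without Control 1, Control 2 or Kat6a-cKO 2, 42, 23 and 17 genes passed. Within astrocytes 18 of 10655 genes (0.169%) passed, 15 of them lower in Kat6a-cKO, and 3 of the 18 were ependymal and choroid plexus markers: Cfap299 (-4.04), Dnah12 (-4.53) and Tmem212 (-8.46). The 10 genes of that marker list summed to 60.3, 636, 12.6 and 10.7 CPM in the astrocyte class, highest in Control 2. The part of these markers in the comparison with OPC was not tested.

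Against excitatory neurons, where the Cre is active, 37 of 18434 genes (0.201%) passed, 19 with a higher and 18 with a lower change in OPC. Without the library block 1 gene, Mobp, passed, and 23 passed without Control 1 and 16 without Kat6a-cKO 1. The 5 genes with the largest values are described first. Gm19299, a long noncoding RNA gene, had 76, 4, 1 and 0 counts in OPC, so that its value of -6.58 came from Control 1. Slc6a20a had 0, 1, 55 and 0 counts, with a value of 5.25, and Ptgds 72, 48, 420 and 47 counts, with 1.97, and most counts of both genes came from the nucleus with fibroblast markers. Mobp had a value of 1.64. Gm37240, at 26.8, 44.3, 13.5 and 14.5 CPM in OPC, had -1.57. The smallest adjusted p of the 37 was that of Tmem163 (-1.47, edgeR adjusted p = 1.17e-18). That p is not read as a measure of strength, because it rests on 2 libraries per group. Tmem163 did not pass without the library block, nor within OPC or excitatory neurons alone (edgeR adjusted p = 0.193 in the latter). The log2 fold change of Tmem163 was -0.52 in OPC, which rested on Control 1, and 0.98 in excitatory neurons (8.93 to 23.2 CPM). Gm4876 (-0.97), Kcnh8 (-0.80), Dpp10 (-0.79) and Pcdh15 (-0.69) passed too, with -0.19 to 0.13 in OPC and 0.60 to 0.96 in excitatory neurons. None of these passed within excitatory neurons alone (edgeR adjusted p of 0.098 to 0.357). There Dpp10 was at 524, 346, 1028 and 590 CPM and Pcdh15 at 135, 130, 307 and 154 CPM, each highest in Kat6a-cKO 1. Gm4876 was at 2.99 to 8.08 CPM and Kcnh8 at 8.29 to 12.9 CPM. In the interaction, Nkain2 passed with 0.49. With the marker-mixed nuclei left out, 27 genes passed.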

How the data were processed

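Nuclear RNA of hippocampus was measured in 4 libraries (10x Chromium). The authors deposited whole-number UMI counts per gene and barcode, empty droplets included. Per the submitters' processing notes the build was mm10 and Seurat 4.0.1 was used. The aligner, annotation, counting of intronic reads and strand are not given in the sources used here, so reads of overlapping genes cannot be told apart. Library totals were 186897245 and 183440076 (Control) and 177249737 and 171323466 (Kat6a-cKO) counts. Positions are from GENCODE M21 (GRCm38), whose IDs and versions match 54587 of 55422 gene IDs.

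Counts were summed per library over OPC nuclei and over oligodendrocytes (3126 nuclei), astrocytes (1586) and excitatory neurons (11059), each set by marker UMIs. Sums were tested with edgeR 4.0.16 (TMM, filterByExpr, quasi-likelihood test, Benjamini-Hochberg over all genes tested, threshold 0.05) in R 4.3.3. Log2 fold changes use TMM scaling, and CPM values the summed counts. DESeq2 1.42.0 was an alternative. Doublets were called by Scrublet in scanpy 1.11.5 (expected rate 0.06). Shares were compared by exact permutation tests in scipy 1.17.1. The procedure was tested on simulated counts. No set test was run, and lists are described by counts and medians. The nuclei, gene lists and named genes were chosen with earlier results of these data known. Genes were named as follows: Kat6a, the Cre entry and the rule genes, called genes, up to 4 list members of highest mean count, the 20 genes of highest fold in OPC, those among the 30 most overdispersed in all libraries, and the 5 largest values of each interaction. Others were named after their values were seen, among them list members with an unadjusted p under 0.05. Alternatives were other filters, normalizations, members and left-out libraries. Some single-gene results are not reported here.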

Additional observations from a re-analysis of the deposited data

Results flagged for a closer look

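Of the genes that passed an interaction test in edgeR, 8 are given here. These are the 4 called against astrocytes and the 5 of largest value against excitatory neurons, with Ptgds in both. Without the library block, none of the 4 passed against astrocytes, and of the 5 only Mobp passed against excitatory neurons. Against astrocytes, the differences (OPC minus astrocytes, log2) were 5.58 for Ankfn1, 2.42 for Ptgds, 2.10 for Cntnap5c and -1.24 for Dpp10. Ankfn1 was at 0.419 and 0 CPM in the astrocytes of Kat6a-cKO and at 4.06 and 35.1 CPM in those of Control. Ptgds lost its call without the marker-mixed nuclei, with a difference of 0.34 (adjusted p = 1), while Ankfn1, Cntnap5c and Dpp10 passed there. Without Control 2, Ankfn1 (3.98) and Cntnap5c (1.95) did not pass, and Cntnap5c also not without Kat6a-cKO 2 (1.79). Against excitatory neurons, the differences were -6.58 for Gm19299, 5.25 for Slc6a20a, 1.97 for Ptgds, 1.64 for Mobp and -1.57 for Gm37240. Most counts of Slc6a20a and Ptgds came from 1 nucleus with fibroblast markers in Kat6a-cKO 1, and Slc6a20a changed sign without the marker-mixed nuclei. Without the marker-mixed nuclei Mobp was at 0.16 (adjusted p = 1), which is no independent test because Mobp UMIs helped to choose those nuclei. Gm19299 lost its call without Control 1, the library with 76 of its OPC counts.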

How the results depend on the processing

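The count of genes called in OPC, 0, became 1 with DESeq2, 37 with no filter on low counts, 11 with at least 4 markers, 2 with no neuronal UMIs, 1 with sums thinned and 17 without the marker-mixed nuclei (chosen after seeing the data), and 5 to 39 with a library left out. Other normalization, UMI minimums, a minimum of 10 CPM, doublets or cycling nuclei left out and both free RNA subtractions (that with the 100 to 900 UMI profile was added after seeing the data) gave 0. The deviations of same-numbered libraries from their group means had a correlation of 0.00914. With 2 libraries per group this cannot show whether the replicate numbers pair the libraries. A replicate block in edgeR called 1 gene, Gm47283 (-0.94, adjusted p = 0.0139, against 0.221 without the block). The interaction counts were 6 with no filter, 2 without marker-mixed nuclei and 4 to 12 with a library left out for oligodendrocytes, 17 with no filter, 0 with no library block (that is, with no replicate block in the interaction fit) and 0 to 42 for astrocytes, and 7 with sums thinned, 1 with no library block and 16 to 44 for excitatory neurons. In a fit that leaves out a library, the lone sample of a group is assumed to vary like the others. The cause was not tested. The difference in cycling share, 1.01 percentage points, was 0.588 without marker-mixed nuclei and ran from -0.15 to 2.17 with a library left out. That in the share of OPC ran from 0.138 to 0.853 percentage points with a library left out. Signs reversed for Mobp (-0.30 without marker-mixed nuclei), Nkain2 (-0.29) and St18 (-0.43) without doublets, Tmem163 (0.061, and down to -0.90 with another library left out) and Kat6a (0.032, and down to -0.11) without Control 1, Kat6a (0.018) with free RNA subtracted by the 10 to 100 UMI profile, and in OPC minus excitatory neurons Slc6a20a (-6.28 both without Kat6a-cKO 1 and without marker-mixed nuclei) and Ptgds (-0.0089 without them). The committed-precursor share was 0 under every setting run.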
